A study of Mus musculus with 8 samples.

Results

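Acta1, which encodes the actin of skeletal muscle thin filaments, was compared on every array with 9 genes of the smooth muscle contractile apparatus: Acta2, Actg2, Myh11, Tagln, Des, Cnn1, Myl9, Mylk and Tpm2. These 10 genes were selected on their measured IE-Cpr-null minus WT values, so their values are given as a description, with no test. All 10 were found among the 10401 genes that carry a single symbol in the platform annotation, and they were read by 14 of the 18443 probe sets, 1 for Acta1 and 13 for the smooth muscle genes. RNA came from enterocytes, the absorptive cells of the intestinal lining, isolated from the small intestine of males on the C57BL/6 background that were 2.5 to 3.0 months old. In IE-Cpr-null animals the gene of cytochrome P450 reductase (Cpr), the electron donor of the P450 enzymes, is deleted from the epithelium of the intestine. The controls were wild-type littermates, written WT. Each genotype had 4 arrays and each array held RNA pooled from 2 mice, 8 mice per genotype. The promoter that drives the Cre recombinase, and whether the littermates carried any targeted allele, were not given in the sources used here, and the targeted gene is not analysed here.

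In muscle, actin filaments slide along myosin filaments. Skeletal and cardiac muscle build them into sarcomeres with troponins, while smooth muscle, which forms the wall of the gut, uses its own actins and its own myosin heavy chain, switched on by phosphorylation of the myosin light chain. Enterocytes carry cytoplasmic actins in their microvilli and are not a muscle cell. Many genes of both kinds of muscle are driven by serum response factor (SRF), which binds the CArG box, a short DNA element of CC, then 6 bases that are A or T, then GG.

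The deposited values are log2 values centred in each probe set on the median of the 4 WT arrays. They give no level of expression, so a value of 0 means only that an array equals the WT median of that gene, and genes are compared below by how far they depart from their own WT median. All differences are IE-Cpr-null minus WT on the log2 scale. In bulk RNA, fewer cells of a type and less RNA per cell cannot be told apart.

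Promoter sequences of the members are shown first, since skeletal actin and smooth muscle genes are textbook SRF targets and the question is whether they move together. Of the 10 members, 7 were matched by symbol in the RefSeq promoter table (build GRCm38.p6). The 250 bases before each gene's start were searched on both strands for the CArG box, which reads the same on either strand. An exact box was found in 1.47% of the 32851 promoters in the table, and a box with at most 1 of its 6 inner bases other than A or T in 8.59%. Acta1 had 1 exact box, 73 bases before the start, and 2 with 1 other base, 205 and 154 bases before it. Myl9 had 1 exact box at 161 bases and 1 with another base at 99. Acta2 had no exact box and 2 with 1 other base, at 84 and 34 bases. No match was found in this window for Des, Cnn1, Mylk and Tpm2. The 210 bases before the start are given 5′ to 3′ on the gene's strand, with the matches in capitals, for Acta1 (chr8:123894776-123894985, minus strand), Acta2 (chr19:34255374-34255583, minus strand) and Myl9 (chr2:156775254-156775463, plus strand).
Acta1: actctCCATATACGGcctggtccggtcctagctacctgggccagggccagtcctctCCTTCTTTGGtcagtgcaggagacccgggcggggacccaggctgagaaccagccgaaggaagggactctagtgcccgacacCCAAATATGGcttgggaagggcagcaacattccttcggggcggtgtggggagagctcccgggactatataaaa
Acta2: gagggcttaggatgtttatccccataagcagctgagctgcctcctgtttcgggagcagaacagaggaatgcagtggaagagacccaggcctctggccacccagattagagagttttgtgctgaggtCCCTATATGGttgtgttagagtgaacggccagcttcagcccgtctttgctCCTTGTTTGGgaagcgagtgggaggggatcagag
Myl9: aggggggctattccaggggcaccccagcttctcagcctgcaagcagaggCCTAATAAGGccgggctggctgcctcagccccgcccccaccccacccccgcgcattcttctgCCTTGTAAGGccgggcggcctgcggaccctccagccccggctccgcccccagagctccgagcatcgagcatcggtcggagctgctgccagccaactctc

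Acta1 separated the genotypes. On the WT arrays 1 to 4 it read -0.0069, 0.010, 0.0069 and -0.15, and on the IE-Cpr-null arrays 1 to 4 it read 1.74, 2.45, 1.91 and 1.91. All 4 IE-Cpr-null pools therefore lay above all 4 WT pools, with the lowest of them 1.74 against a highest WT value of 0.010. The group means were -0.036 ± 0.079 (SD, n = 4) in WT and 2.00 ± 0.31 (SD, n = 4) in IE-Cpr-null, a difference of 2.04 with an SE of 0.16, or 4.11-fold. The gene was read by 1 probe set, with the suffix _a_at, so no other probe set stood beside it.

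The smooth muscle genes varied from pool to pool within each genotype. The array IE-Cpr-null 1 was the highest of the 8 for all 9 genes, WT 2 was second for 8 of the 9, and WT 1 came next for 8 of the 9. The mean of the 9 genes was 5.91 on IE-Cpr-null 1, 2.62 on WT 2 and 0.53 on WT 1. On the other 5 arrays it lay between -0.72 and -0.53, with both genotypes interleaved. The group difference of that mean was 0.51 with an SE of 1.80, within the spread between pools. The groups overlapped in each of the 9 genes. Of the 10 members, 1 (Acta1) was higher on every IE-Cpr-null array than on any WT array and 0 were lower, where over all genes 1.85% were higher and 3.00% lower in that way. Nothing is read from this count, since the members were chosen by the same contrast.

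**Figure D1:**
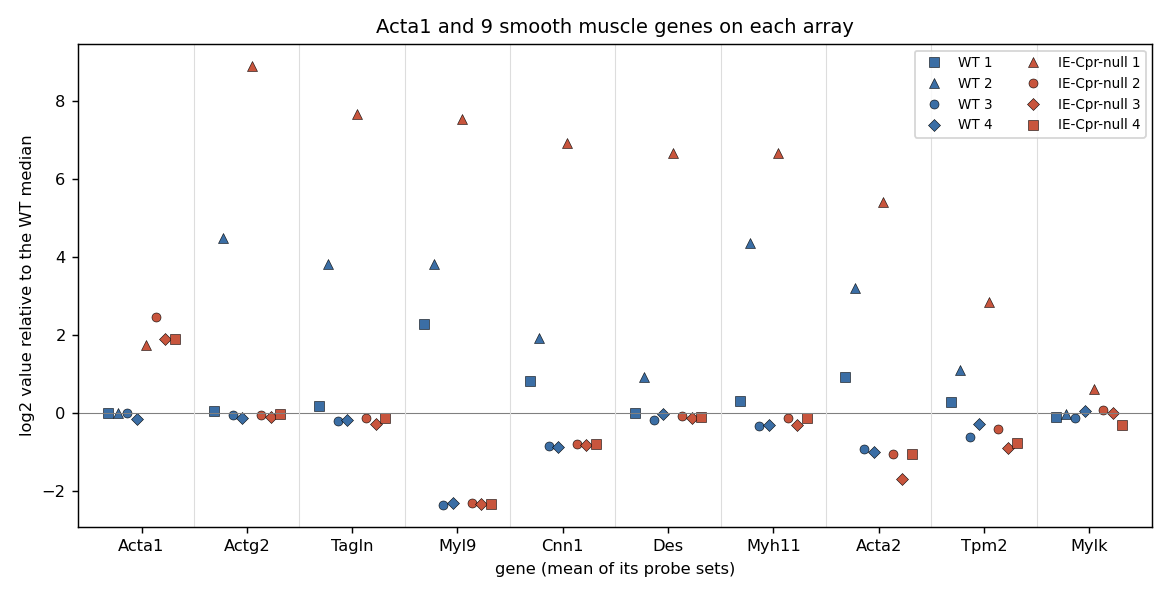
Log2 value relative to the WT median (vertical axis) of Acta1 and the 9 smooth muscle genes (horizontal axis), 1 point per array, WT in blue and IE-Cpr-null in red. Acta1 is 1.74 to 2.45 on the 4 IE-Cpr-null arrays, whereas the other genes peak on IE-Cpr-null 1 and, in all but Mylk, next on WT 2.

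Among the smooth muscle actins, Actg2, the enteric actin that is the main actin of gut smooth muscle, showed the widest excursion. It read 0.051, 4.48, -0.051 and -0.12 on WT 1 to 4 and 8.89, -0.035, -0.11 and -0.020 on IE-Cpr-null 1 to 4. Only IE-Cpr-null 1 and WT 2 stood away from 0, and IE-Cpr-null 1 was 21.3-fold above WT 2. Acta2, the actin of vascular and other smooth muscle, read 0.93, 3.20, -0.93 and -0.996 on the WT arrays and 5.42, -1.04, -1.68 and -1.03 on the IE-Cpr-null arrays. Its 3 lowest values were those of IE-Cpr-null 2, 3 and 4, the arrays on which Acta1 was highest. The group differences were 1.09 (SE 2.50) for Actg2 and -0.13 (SE 1.94) for Acta2. Both were smaller than their errors. The probe set of Acta2 carries the suffix _s_at, given where probes are shared among related genes.

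Myh11, the smooth muscle myosin heavy chain, read 0.30, 4.36, -0.32 and -0.30 on the WT arrays and 6.66, -0.12, -0.29 and -0.13 on the IE-Cpr-null arrays, a difference of 0.52 (SE 2.05). Myl9, a regulatory light chain of that myosin, read 2.29, 3.83, -2.34 and -2.29 on the WT arrays and 7.53, -2.31, -2.33 and -2.31 on the IE-Cpr-null arrays, a difference of -0.23 (SE 2.93). On Myl9 the remaining 5 arrays lay within 0.053 of each other, and WT 1 lay 4.64 above the lowest of them. WT 1 thus carried a Myl9 signal that was smaller than that of WT 2 and IE-Cpr-null 1 but well apart from the rest. Mylk, the kinase that phosphorylates this light chain, varied far less. Its mean over 3 probe sets was -0.085, -0.017, -0.11 and 0.052 on the WT arrays and 0.62, 0.088, 0.018 and -0.30 on the IE-Cpr-null arrays, and IE-Cpr-null 1 was the highest array in each of the 3 probe sets, at 0.67, 0.72 and 0.47.

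The thin filament and filament-anchoring genes repeated the order of the arrays. Tagln, which encodes the actin-binding protein transgelin, read 0.18, 3.83, -0.20 and -0.18 on the WT arrays and 7.65, -0.13, -0.27 and -0.12 on the IE-Cpr-null arrays, a difference of 0.88 (SE 2.19). Cnn1, the actin-binding protein calponin, read 0.84, 1.92, -0.84 and -0.85 on the WT arrays and 6.90, -0.79, -0.82 and -0.80 on the IE-Cpr-null arrays, a difference of 0.86 (SE 2.04). In both genes 1 IE-Cpr-null array supplied the whole of the positive difference, and the other 3 lay below the WT mean.

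Des, the muscle intermediate filament protein desmin, read 0.011, 0.92, -0.17 and -0.011 on the WT arrays and 6.67, -0.066, -0.12 and -0.088 on the IE-Cpr-null arrays, a difference of 1.41 (SE 1.71). Its rise from WT 2 to IE-Cpr-null 1 was the steepest of the 9 genes, at 54.0-fold. The same rise was 4.94-fold for Myh11, 4.66-fold for Acta2, 3.37-fold for Tpm2 and, least of the 9, 1.56-fold for Mylk. IE-Cpr-null 1 and WT 2 therefore differed by unequal amounts in different smooth muscle genes. Tpm2, the beta-tropomyosin, which striated muscle also expresses, read 0.28, 1.10, -0.61 and -0.27 on the WT arrays and 2.86, -0.40, -0.90 and -0.77 on the IE-Cpr-null arrays as the mean of 3 probe sets. Its probe sets disagreed. On IE-Cpr-null 1 they read 4.06, 4.41 and 0.11, the last being the probe set with the suffix _x_at, which marks probes shared with other sequences.

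Set side by side on each array, Acta1 and the smooth muscle genes parted in both directions. On IE-Cpr-null 1, 8 of the 9 smooth muscle genes lay above Acta1, and on IE-Cpr-null 2, 3 and 4 none (0 of 9) did. In WT, 8 of the 9 lay above Acta1 on WT 1 and on WT 2, 3 did on WT 4 and 0 on WT 3. Acta1 lay near 0 on the WT arrays, where centring sets the WT median. The WT counts therefore mostly tell on which arrays the smooth muscle genes lay above their own WT median. Acta1 stood at 0.010 on WT 2 and at 0.0069 on WT 3, whose smooth muscle means were 2.62 and -0.62. Acta1 minus the smooth muscle mean was -0.54, -2.61, 0.62 and 0.40 on WT 1 to 4 and -4.17, 2.99, 2.63 and 2.53 on IE-Cpr-null 1 to 4. The lowest of these 8 values and the 3 highest all belonged to IE-Cpr-null arrays. The group means were -0.53 ± 1.48 (SD, n = 4) and 0.99 ± 3.45 (SD, n = 4), a difference of 1.53 with an SE of 1.87, which was within the spread between pools. Without IE-Cpr-null 1 the difference was 3.25, without WT 2 it was 0.83, and without both it was 2.55. Without IE-Cpr-null 2 and 3 it was -0.29, since IE-Cpr-null 1 then made up 1 of the 2 arrays left. The Acta1 difference itself was 2.13 without IE-Cpr-null 1, 2.06 without WT 2 and 2.14 without both, while that of the smooth muscle mean was -1.12, 1.22 and -0.41. The arrays fall into separate groups by genotype, so no correlation between the 2 quantities was computed.

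**Figure D2:**
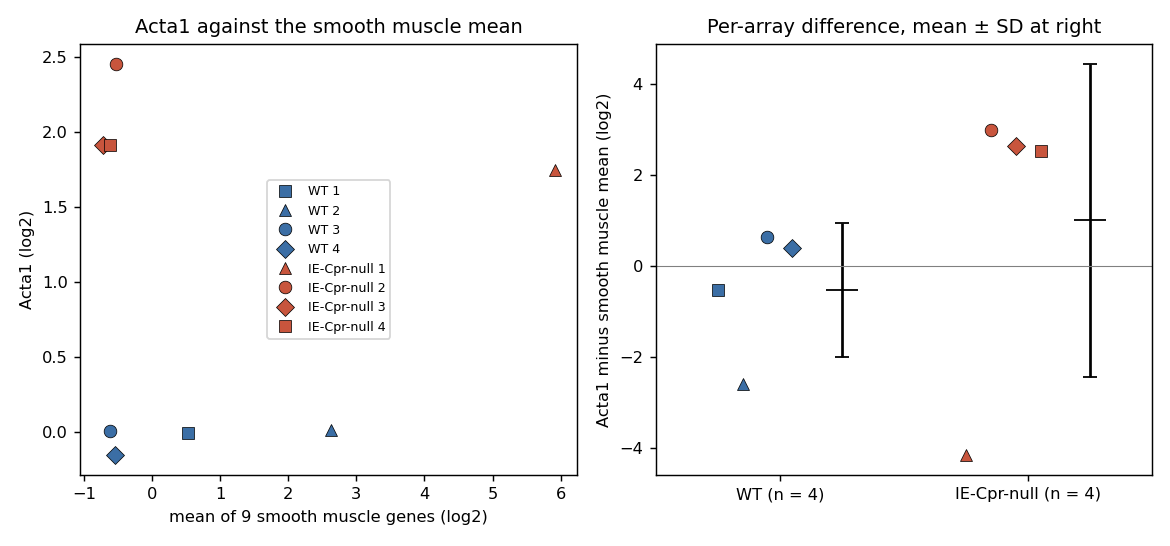
Left, Acta1 (vertical, log2) against the mean of the 9 smooth muscle genes (horizontal, log2), 1 point per array. Right, Acta1 minus that mean by genotype, with the group mean and SD (n = 4) drawn beside the points. Acta1 lies at or above 1.74 on all IE-Cpr-null arrays, at smooth muscle means from -0.72 to 5.91, and at or below 0.010 on all WT arrays.

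Other genes of skeletal and cardiac muscle stayed near their WT medians. Of 37 listed sarcomere and muscle fibre genes 23 were measured, 20 higher and 3 lower in IE-Cpr-null, and their median was 0.027 against 0.016 over all 10401 genes, of which 57.6% were higher. For 21 of the 23 the difference was within 0.2 of 0. None passed an adjusted p of 0.05 in limma (0 of 23), where 0.0288% of all genes passed. At an unadjusted p under 0.05, 0 were higher and 0 lower, where 3.27% and 5.42% of all genes were. The groups overlapped in all 23. The smallest adjusted p was that of Mylpf, the regulatory light chain of fast skeletal myosin (difference 0.13, limma adjusted p = 0.73).

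Actc1, the cardiac actin and the closest relative of Acta1 among the actins, read 0.053, 0.034, -0.034 and -0.038 on the WT arrays and 0.079, 0.044, -0.0090 and 0.033 on the IE-Cpr-null arrays. Its difference of 0.033 lay within the spread (limma adjusted p = 0.836). The fast and slow myosin heavy chains Myh1 and Myh7 differed by 0.045 and 0.027, and the giant sarcomere protein titin, Ttn, by 0.024. The values of Actc1 fell in nearly the same order as the medians of all probe sets on the arrays, which ran from -0.025 to 0.036. Those of Myh1, Myh7, Ttn and the 4 myogenic factors named below did so too. Other striated genes, such as Mylpf and Tnnt1, had other orders. Values this near the array medians do not show whether these genes were expressed. Only Tnnt2 and Tnni1 differed by more than 0.2, both with groups that overlapped. Tnnt2, the cardiac troponin T, was 2.03 on IE-Cpr-null 1 and between -0.093 and 0.12 on every other array. Tnni1, the slow troponin I, read -0.039, 1.53, -0.86 and 0.039 on the WT arrays and 0.024, 0.00031, -1.09 and 0.53 on the IE-Cpr-null arrays. Myogenic transcription factors differed as little: Myog, Myf5, Myf6 and Pax3, the 4 measured of 6 listed, differed by 0.018, 0.048, 0.018 and 0.026. None passed the threshold (0 of 4), where 0.0288% of all genes did. The count was the same at an unadjusted p under 0.05, where 3.27% of all genes were higher and 5.42% lower.

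The cytoplasmic actins, which enterocytes use in their microvilli, differed little. Actb differed by -0.10 over 2 probe sets and Actg1 by 0.052, both with limma adjusted p = 0.836. Across the 12 measured genes of cytoplasmic actin and actin turnover, 9 were higher and 3 lower, with a median of 0.048. None passed the threshold in limma (0 of 12), where 0.0288% of all genes did. At an unadjusted p under 0.05 it was 0 as well, where 3.27% of all genes were higher and 5.42% lower. So few genes do not set this list apart from all genes by these counts. Gsn, the actin-severing protein gelsolin, had the smallest p (difference 0.42, limma adjusted p = 0.62).

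SRF and its partners showed small differences. Of the 10 listed names 6 were measured, 5 higher and 1 lower, with a median of 0.081. Srf read -0.19, 0.065, 0.19 and -0.17 on the WT arrays and 0.20, 0.29, 0.29 and 0.13 on the IE-Cpr-null arrays. Its groups overlapped, and the difference of 0.25 had an unadjusted p of 0.0288 and a limma adjusted p of 0.496. It was the 1 gene of this list with an unadjusted p under 0.05, where 3.27% of all genes were higher and 5.42% lower at that threshold. Myocd, the SRF coactivator of smooth and cardiac muscle, differed by 0.027, and Mrtfa, the actin-regulated coactivator, by 0.14.

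Of the smooth muscle genes outside the members, 7 of 10 were highest on IE-Cpr-null 1, against 31.8% of all genes. So were 18 of the 23 striated genes and 4 of the 4 myogenic factors. The rank alone thus does not set smooth muscle genes apart. IE-Cpr-null 1 also had the highest median of all probe sets, at 0.036. The 10 were the measured ones of 19 listed smooth muscle genes, 7 higher and 3 lower with a median of 0.49. None of them passed in limma (0 of 10), where 0.0288% of all genes did. At an unadjusted p under 0.05, 1 was higher (Myl6, the myosin essential light chain, 0.23, adjusted p = 0.491) and 0 were lower, where 3.27% and 5.42% of all genes were. On IE-Cpr-null 1, 6 of the 10 exceeded 1, as did 8 of the 9 member genes, 1 of the 23 striated genes and 1.94% of all genes. On WT 2, 3 of the 10 did, against 0.51% of all genes. Flna, the actin cross-linker filamin A, was 7.10 on IE-Cpr-null 1 and 2.42 on WT 2. Csrp1, a LIM protein of smooth muscle, was 5.53 and 1.20, Cald1, caldesmon, 5.48 and 2.17, and Smtn, smoothelin, 3.72 and 0.53. Ppp1r14a, an inhibitor of myosin phosphatase, was 4.67 on IE-Cpr-null 1 and 0.11 on WT 2, so WT 2 did not follow in every gene. Myl6 and Tpm1, a tropomyosin, were highest on IE-Cpr-null 2, and Vcl, the adhesion protein vinculin, on WT 1.

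**Figure D3:**
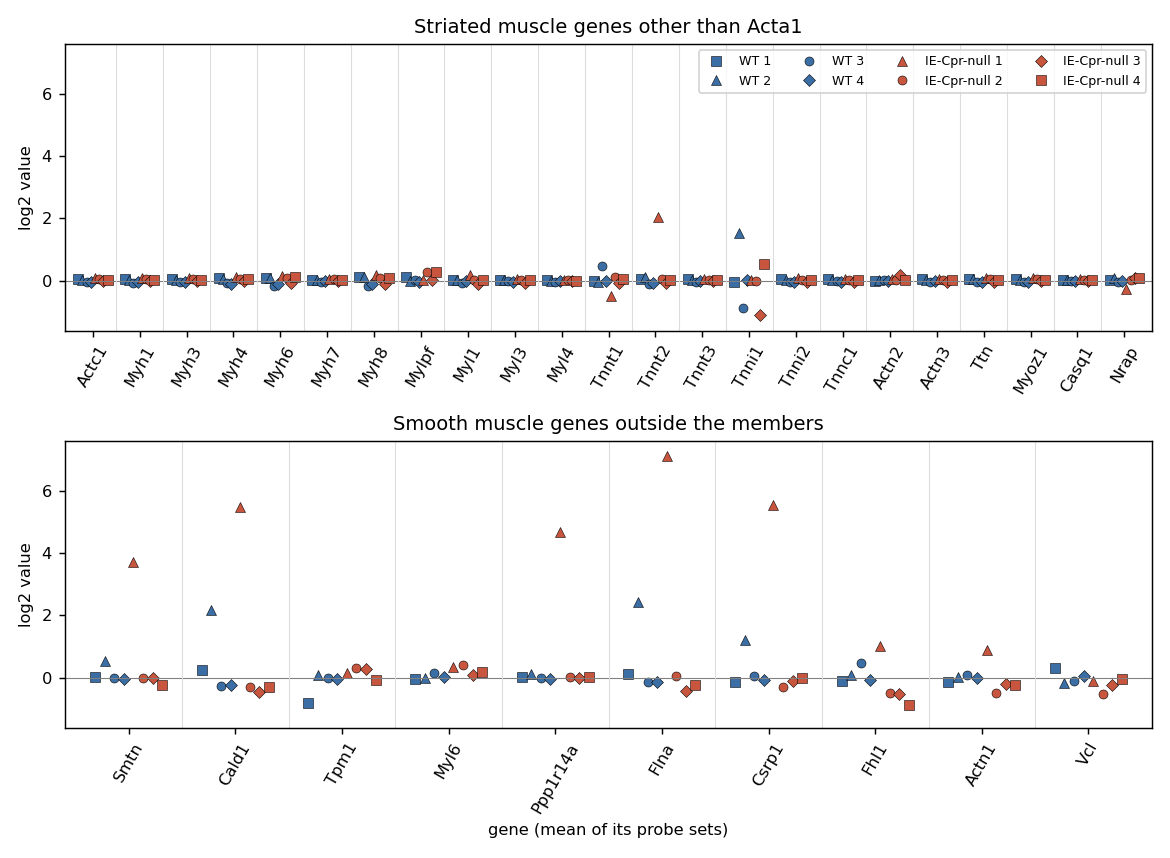
Log2 value relative to the WT median (vertical axis) on each array for the 23 striated muscle genes other than Acta1 (upper panel) and for the 10 smooth muscle genes outside the members (lower panel), on the same scale. Most striated genes stay near 0, and Flna, Csrp1, Cald1, Ppp1r14a and Smtn stand out on IE-Cpr-null 1, at 3.72 to 7.10.

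The genes most like Acta1 were found by the root mean square difference of log2 values over the 8 arrays, among 10400 genes. The nearest was Cyp1a1, a drug-metabolising P450, at 0.28, with 0.54, -0.21, 0.015 and -0.015 on the WT arrays and 1.32, 2.45, 2.07 and 2.16 on the IE-Cpr-null arrays. Next came Tmigd1 (0.49), an epithelial adhesion molecule, the squalene epoxidase Sqle (0.515), Pnpla7 (0.54), a lysophospholipase, and the phosphate transporter Slc34a2 (0.56). For the 9 smooth muscle members the same distance from Acta1 ran from 1.39 for Mylk to 3.90 for Myl9. The distance also depends on how widely a gene varies, so it does not rank these 9 genes by likeness of shape. The genes nearest to the smooth muscle mean, members left out, were Cald1 (0.34), Fabp4, a fatty acid binding protein of adipocytes and endothelium (0.46), Rgs5, a pericyte marker (0.485), Sparcl1, a matrix glycoprotein (0.56), and Flna (0.57). None of the 5 genes nearest Acta1 is a muscle gene by its textbook role, and Cald1 and Flna, of those nearest the mean, were on the smooth muscle list. Acta1 was chosen for its genotype difference, and this distance favours genes with a like difference. The 5 nearest differed by 1.25 (Pnpla7) to 2.07 (Tmigd1), so they restate that choice and are no separate evidence on Acta1.

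Markers of some other cell types were also high on IE-Cpr-null 1. Fibroblast and matrix markers averaged 1.16 on IE-Cpr-null 1, 0.28 on WT 2 and -0.36 to -0.017 on the other arrays. On IE-Cpr-null 1, 9 of 10 were highest, against 31.8% of all genes, and 6 of 10 exceeded 1, against 1.94%. Pdgfra and Fbln1 stayed low there, at 0.085 and -0.035. The defining collagen genes read 1.21 for Col1a1, 0.66 for Col1a2 and 1.02 for Col3a1 on IE-Cpr-null 1 (Col3a1 lay from -2.03 to -0.95 on IE-Cpr-null 2 to 4), and the proteoglycan gene Dcn 3.56. Pericyte markers averaged 1.54 there and 0.32 on WT 2, mostly through Rgs5 at 6.65, with 1 of the 5 above 1. Of the interstitial cell of Cajal markers, Kit was 1.01 on IE-Cpr-null 1 and Ano1 0.073. Enteric neuron and glia markers averaged between -0.039 and 0.084 on all 8 arrays, and endothelial markers (2 measured) were highest on IE-Cpr-null 2, at 0.40. No gene of these 5 lists passed in limma (0 in each), where 0.0288% of all genes did. At an unadjusted p under 0.05 it was also 0 in each, where 3.27% of all genes were higher and 5.42% lower. With 2 to 10 measured genes per list, these counts do not set the lists apart from all genes.

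Other tissue markers lay beside the Acta1 difference. Pancreatic acinar markers (12 measured of 15) averaged -0.63, 1.57, -4.36 and 0.60 on WT 1 to 4 and -1.79, -4.48, -4.54 and -4.48 on IE-Cpr-null 1 to 4. All 12 were lower in IE-Cpr-null, by a median of -3.22, none passing in limma (6 lower at an unadjusted p under 0.05, where 5.42% of all genes were). WT 3, as low in these transcripts as IE-Cpr-null 2 to 4, had an Acta1 value of 0.0069, and IE-Cpr-null 1, the IE-Cpr-null array with the most acinar signal, had 1.74. Hepatocyte markers (12 measured of 15) averaged 4.77 and 2.83 on IE-Cpr-null 2 and 3 and -0.072 to 0.19 on the other 6 arrays, and without these 2 arrays the Acta1 difference was 1.86. Enterocyte markers (10 measured of 12) stayed between -0.085 and 0.038 as an average on every array, lowest on IE-Cpr-null 1. Their median difference was -0.0066, and because the values are centred they cannot show whether the markers were present. The interquartile range of all probe sets was 0.12 to 0.20 on the IE-Cpr-null arrays, widest on IE-Cpr-null 1, and 0.061 to 0.10 in WT. Centring on the WT median by itself narrows the WT arrays, so no difference between genotypes is read from these ranges. The part of any of these in the Acta1 or smooth muscle values was not tested.

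**Figure D4:**
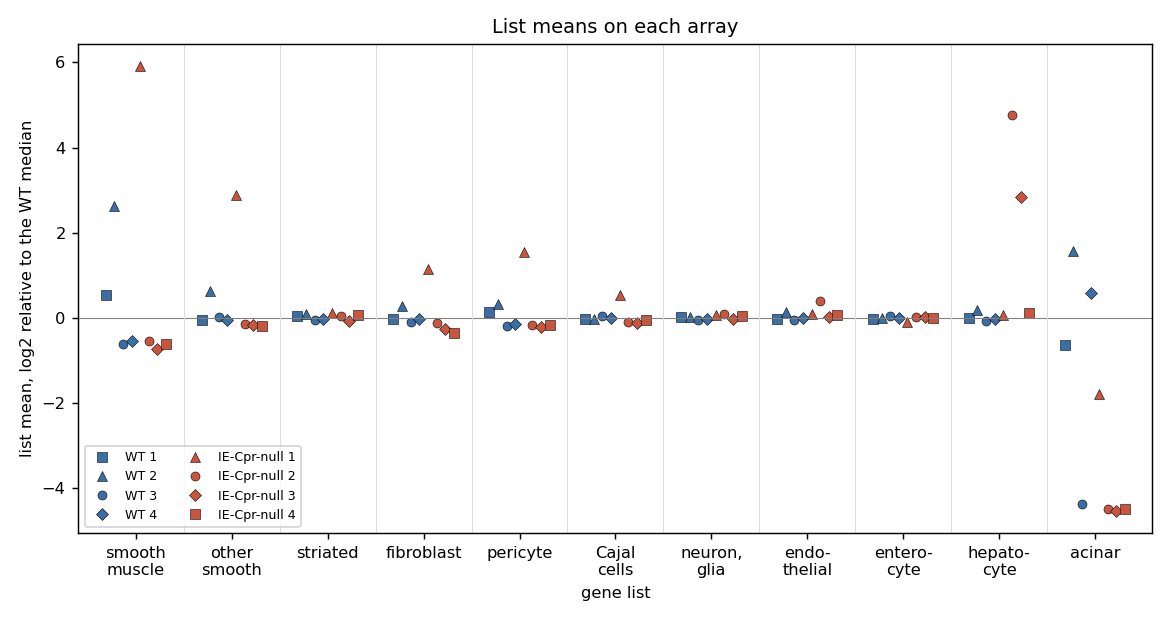
Mean log2 value relative to the WT median (vertical axis) of 11 gene lists (horizontal axis) on each array, WT in blue and IE-Cpr-null in red. IE-Cpr-null 1 is highest for smooth muscle (5.91), fibroblast (1.16) and pericyte (1.54) genes, and the striated list stays between -0.067 and 0.12.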

How the data were processed

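The authors deposited log2 values per probe set and array, made with GCRMA per the submitters' processing notes. The version, settings and genome build were not given in the sources used here. In the table the median of the 4 WT arrays was 0 to within 9.54e-07 in every probe set, so signal over background is unknown and no filter on dim probe sets could be applied. Titles gave the group and the replicate number. Nothing says how the mice were paired into pools, and p-values measure only how much pools differ. Precision is limited by the number of arrays.

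Of 18443 probe sets, 16689 carried 1 symbol (10401 genes), 616 several and 1138 none in the table used. A gene's probe sets were averaged. All genes were fitted with limma 3.58.1 in R 4.3.3 (lmFit and eBayes, two-sided, constant prior), with Benjamini-Hochberg adjustment over the 10401 genes and a threshold of 0.05; the code was tested on simulated data. SEs of members are those of the difference of group means. Members, lists and tests were chosen with earlier results of these data known. Named were all members, other actins, the gene of smallest p and up to 3 defining genes of each list (no listed gene passed the threshold), and the 5 genes nearest Acta1 and nearest the smooth muscle mean. Tnnt2, Tnni1, Flna, Csrp1, Cald1, Smtn, Ppp1r14a, Tpm1, Vcl and the stromal genes given on IE-Cpr-null 1 were picked after their values were seen. Alternatives were quantile normalization, median centring, array weights, a replicate block, medians in place of means, a robust prior, and arrays left out. Another left out the 6249 probe sets with the suffix _a_at, _s_at or _x_at. A smooth muscle mean without Mylk and Tpm2 was added after seeing the data.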

Additional observations from a re-analysis of the deposited data

Results flagged for a closer look

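A pool was marked where its gap to the nearest of the other pools of its genotype was over 0.829 of the whole range of those 4 pools. Chance marks about 1 in 20 groups, and 21 of the 50 groups examined were marked, most of them through the same pair of arrays. These groups are not independent, since genes of one cell type share them.

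IE-Cpr-null 1 stood above the other IE-Cpr-null pools for Acta2 (5.42), Actg2 (8.89), Myh11 (6.66), Tagln (7.65), Des (6.67), Cnn1 (6.90), Myl9 (7.53), Tpm2 (2.86) and the smooth muscle mean (5.91). It stood below them for Acta1 minus that mean (-4.17, against 2.53 to 2.99). Lists that were not members behaved alike on this array: other smooth muscle genes (2.88), fibroblast and matrix (1.16), pericyte (1.54), interstitial cell of Cajal (0.54) and pancreatic acinar markers (-1.79, against -4.54 to -4.48).

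WT 2 stood above the other WT pools for Actg2 (4.48), Myh11 (4.36), Tagln (3.83), Des (0.92) and the other smooth muscle genes (0.64). WT 4 stood below the other WT pools for Acta1 (-0.15, against -0.0069 to 0.010), a gap of small size. In the IE-Cpr-null group no pool was marked for Acta1.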

How the results depend on the processing

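The Acta1 difference kept its direction in all 15 alternatives that gave it (1.86 to 2.14). The smooth muscle mean difference (0.51) changed sign with array weights (-0.57), without both WT 2 and IE-Cpr-null 1 (-0.41) and without IE-Cpr-null 1, and ran from -1.12 to 1.22 as single arrays were left out. Without IE-Cpr-null 2 and 3 it was 2.15, with quantile normalization 0.21, without WT 3 or WT 4 it was 0.14 or 0.16, and with the median over members 0.77. Acta1 minus that mean (1.53) turned to -0.29 without IE-Cpr-null 2 and 3, was 2.59 with array weights, and ran from 0.83 to 3.25 as single arrays were left out. Array weights gave IE-Cpr-null 4 a weight of 6.57 and called 586 genes, among them 1 striated gene, Mylpf (weighted difference 0.27, limma adjusted p = 0.0378). In the other 16 alternatives no striated gene was called, and in all 17 no other smooth muscle gene was. The cause of these shifts was not tested. Each of the 9 smooth muscle genes changed sign in 2 to 6 alternatives. With a replicate block the Acta1 difference stayed 2.04 and 1 gene in place of 3 was called over all genes. The deviations of same-numbered pools from their group means had r of -0.095, -0.052, 0.26 and 0.16 for numbers 1 to 4. WT 3 and WT 4 were each most like the IE-Cpr-null pool of the same number, and WT 1 and WT 2 were not. Since this did not hold in every pair, the numbers were not taken as pairs. The filter on dim probe sets was not run. Acta1, Acta2, Actg2 and Tpm2 could not be computed without the probe sets with the suffix _a_at, _s_at or _x_at.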
